A study of Mus musculus with 167 samples.

Results

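The 10 genes described here encode heat shock proteins, the molecular chaperones that bind unfolded polypeptides and help them to fold, assemble, cross membranes or be degraded. They were set as a list of names, read from the Ensembl identifiers of the table, and were 10 of its 38924 genes. Of these 10 genes, 4 were grouped as stress-inducible (Hspa1a, Hspa1b, Dnajb1 and Hsp90aa1) and 6 as constitutive (Hspa8, Hsp90ab1, Dnaja1, Hspa5, Hspd1 and Hspe1). Transcripts were measured in single lymphoid-primed multipotent progenitors (LMPPs), blood-forming cells of the marrow that give rise to lymphoid and myeloid lineages and have lost most megakaryocyte and erythroid potential. The cells came from wild-type C57BL/6J female mice aged 4 or 14 months, with no treatment at either age. Per the labels' protocols, the sort took cells lacking lineage markers and CD150 that carried Sca-1, CD34, c-Kit and high Flt3, and each was captured on a Fluidigm C1 microfluidic chip. No label names an animal, so the cells of an age count as 1 sample, and no test between ages was possible.

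Chaperones work in families that differ by compartment. HSP70 proteins hold exposed hydrophobic stretches of a client in a cycle driven by ATP, J-domain proteins of the HSP40 family deliver clients and start that cycle, and HSP90 proteins act later on clients such as kinases and steroid receptors. In mitochondria, HSP60 and HSP10 form a closed folding chamber. When proteins unfold, heat shock factor 1 forms trimers, binds repeats of the letters GAA and their complement TTC in promoters (heat shock elements), and raises the inducible genes many-fold. In cells isolated from a tissue, the inducible members are also known to respond to warming, enzymes and handling, so their level is often read as a sign of how the cells were treated.

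The promoter letters are shown first because they set the inducible and constitutive members side by side. RefSeq windows (build GRCm38.p6) of 300 bases, from 250 bases before to 50 after an annotated start, matched 7 of the 10 members. Hspa8, Hsp90aa1 and Hsp90ab1 had no window. Capitals mark matches to the heat shock letters GAANNTTC or TTCNNGAA, each of which reads the same on both strands, or, in Hspa5, to the endoplasmic reticulum stress element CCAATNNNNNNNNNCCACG, searched on both strands. The windows below were chosen because each holds such a match, 1 per gene, with the shared Hspe1 and Hspd1 region given once.
Hspa1a: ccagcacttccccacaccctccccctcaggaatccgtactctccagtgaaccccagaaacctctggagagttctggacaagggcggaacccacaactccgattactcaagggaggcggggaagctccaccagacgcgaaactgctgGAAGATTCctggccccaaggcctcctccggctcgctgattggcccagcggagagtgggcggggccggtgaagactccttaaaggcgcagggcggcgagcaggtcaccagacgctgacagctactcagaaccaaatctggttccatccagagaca
Hspa1b: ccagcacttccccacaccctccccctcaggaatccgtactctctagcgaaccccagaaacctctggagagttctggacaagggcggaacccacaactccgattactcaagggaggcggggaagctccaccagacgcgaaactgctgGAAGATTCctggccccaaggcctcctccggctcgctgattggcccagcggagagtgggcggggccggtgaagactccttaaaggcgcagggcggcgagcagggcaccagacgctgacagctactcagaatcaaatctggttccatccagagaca
Dnaja1: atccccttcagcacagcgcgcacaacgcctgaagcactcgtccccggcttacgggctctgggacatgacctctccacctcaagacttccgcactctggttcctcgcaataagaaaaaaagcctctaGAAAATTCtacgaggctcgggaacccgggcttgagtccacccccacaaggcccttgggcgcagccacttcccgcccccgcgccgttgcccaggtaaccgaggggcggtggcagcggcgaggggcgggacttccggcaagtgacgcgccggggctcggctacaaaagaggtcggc
Hspe1: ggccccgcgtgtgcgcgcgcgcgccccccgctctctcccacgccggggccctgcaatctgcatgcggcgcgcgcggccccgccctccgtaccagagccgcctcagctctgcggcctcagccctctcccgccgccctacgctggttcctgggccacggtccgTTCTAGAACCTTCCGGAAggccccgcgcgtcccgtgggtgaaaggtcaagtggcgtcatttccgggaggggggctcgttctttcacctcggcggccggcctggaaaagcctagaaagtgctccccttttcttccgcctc
Hspa5: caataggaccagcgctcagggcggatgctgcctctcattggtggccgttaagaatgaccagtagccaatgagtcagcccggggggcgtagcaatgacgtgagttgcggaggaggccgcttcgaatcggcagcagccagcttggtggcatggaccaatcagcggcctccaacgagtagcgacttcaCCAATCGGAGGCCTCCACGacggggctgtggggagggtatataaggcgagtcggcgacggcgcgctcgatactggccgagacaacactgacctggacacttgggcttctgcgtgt

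Hspa1a (chr17:34972107-34972406, minus strand) and Hspa1b (chr17:34959189-34959488, minus strand) encode nearly the same inducible HSP70 protein, and their windows differed at 4 of 300 positions. Both windows held 1 match, at 104 to 97 bases before the start. Dnaja1 (chr4:40722218-40722517, plus strand), a constitutive member, held 1 match at 124 to 117 bases before its first start. Hspe1 (chr1:55087898-55088197, plus strand) lies head to head with Hspd1, and their windows overlapped by up to 285 bases. The run of 4 alternating units in that shared stretch lay 89 to 72 bases before the Hspe1 start, and it contains the 3-unit forms GAANNTTCNNGAA and TTCNNGAANNTTC, which are the same motif on opposite strands and overlap the 2-unit matches. The Hspa5 match (window chr2:34771840-34772139, plus strand) lay 65 to 47 bases before the start. No match was found in the 2 windows of Dnajb1, which says only that these letters were not in those stretches.

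Among all 32851 mouse promoter windows of this length, 15.1% held either 2-unit form, 0.603% a 3-unit form and 0.119% the stress element. By gene, 5 of the 7 members with a window held a 2-unit form, against 17.0% of 27025 genes. Of these 5 genes, 2 were grouped as inducible and 3 as constitutive. They are not separate matches, since Hspe1 and Hspd1 share the same stretch and the Hspa1a and Hspa1b windows are near copies. The letters therefore occurred in both classes, but the set is too small and too alike to compare the classes or to set it against the share of all genes. A match is a description of sequence, not a measured binding site.

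**Figure D1:**
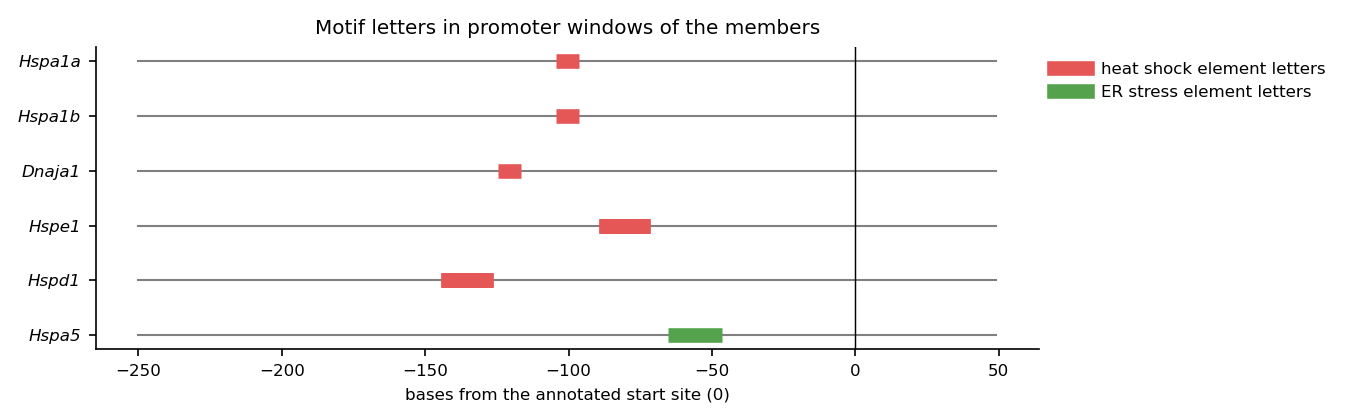
Positions of matched motif letters in the promoter windows of 6 members, in bases from the annotated start site at 0 (horizontal axis); grey lines are the 300-base windows, red bars heat shock element letters and green bars the endoplasmic reticulum stress element. The red bars of Hspa1a and Hspa1b lie at the same distance from the start, and those of Hspe1 and Hspd1 are 1 stretch read from both sides.

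The table gave TPM values, an abundance per transcript length scaled to 1000000 in every cell, so genes can be compared with each other but sequencing depth is unknown. It had 84 columns at each age, against 84 labels at 4 months and 83 at 14 months. A gene was called detected at TPM 1 or more, and columns with 1000 or more detected genes were kept, which left 64 cells of 4 months and 66 of 14 months. The 14-month cells carried the set number 4 (29 cells) or 5 (37 cells), a number that the labels do not explain, and age cannot be told apart from capture. Kept cells had a median of 3974.5 detected genes at 4 months, 3230 in set 4 and 3376 in set 5, and a median mitochondrial share of TPM of 12.4% at 4 months and 17.7% at 14 months (20.5% in set 4, 15.8% in set 5). The sort markers Flt3 and Cd34 were detected in 100% and 89.1% of 4-month cells and in 92.4% and 87.9% of 14-month cells. Kit (c-Kit) and Ly6a (Sca-1) were detected in fewer, in 67.2% and 39.1% of 4-month cells and in 53.0% and 37.9% of 14-month cells. Among markers the sort removes, the kept cells had 0 TPM of Slamf1, Cd3e and Ly6g, while Itgam, which encodes CD11b, was detected in 68.8% of 4-month and 25.8% of 14-month cells. Of 15 markers of erythroid, megakaryocyte, B, T, neutrophil and monocyte cells, 10 appeared in some 4-month cell and 8 in some 14-month cell. Their summed TPM had a median of 0.74 (range 0 to 974) at 4 months and of 0 (range 0 to 2232) at 14 months. The most often detected was Cd68 (monocyte and macrophage), in 26.6% of 4-month and 24.2% of 14-month cells. Gata1 was listed at 0. The part of other cells, of detection, of the mitochondrial share or of Itgam in the age differences below was not tested.

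The stress-inducible HSP70 genes were nearly silent in these progenitors, while their constitutive relative Hspa8 was among the most abundant transcripts. Hspa1a was detected in 3 of 64 cells at 4 months (4.69%, exact Clopper-Pearson 95% interval 0.977% to 13.1%) and in 1 of 66 at 14 months (1.52%, 0.0384% to 8.16%). Hspa1b was detected in 4 of 64 (6.25%, 1.73% to 15.2%) and 1 of 66 (1.52%, 0.0384% to 8.16%). These intervals cover counting error only. Either gene was found in 6 of 64 cells at 4 months (9.38%, 3.52% to 19.3%) and 2 of 66 at 14 months (3.03%, 0.369% to 10.5%), and the intervals overlap. In set 4, Hspa1a was listed at 0 in all 29 cells, which allows a share of up to 10.3% (3 cells of the total) or 11.9% (the exact upper limit). In set 5, Hspa1b was listed at 0 in all 37, which allows up to 8.11% or 9.49% by the same measures.

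The cells with an Hspa1a or Hspa1b transcript can be listed singly. The highest Hspa1a value was 46.17 TPM in a 4-month cell with 5985 detected genes, and that cell also had the highest Hspa1b value, 17.29 TPM, and 213.8 TPM of Dnajb1. It was the 1 cell in which both genes were above 0. The next Hspa1a values at 4 months were 5.44 and 4.99 TPM, and the next Hspa1b values were 11.11, 4.56 and 1.86 TPM. At 14 months the values were 2.39 TPM of Hspa1a in a set 5 cell and 9.64 TPM of Hspa1b in a set 4 cell. Every one of these values is far below the 988 to 5044 TPM of Hspa8 in the same cells. The pair is uncertain as a split: 60.3% of the 50-base stretches of the Hspa1a transcript and 62.3% of those of Hspa1b also occur in another gene, for the most part in each other, so short reads can be assigned to either copy.

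Dnajb1, the J-domain partner of inducible HSP70, was the inducible member that varied most between groups. At 4 months it ran from 0 to 558 TPM with a median of 44.0, in set 4 from 0 to 315 with a median of 3.61, and in set 5 from 0 to 497 with a median of 14.7. It was detected in 49 of 64 cells at 4 months (76.6%, 64.3% to 86.2%) and in 41 of 66 at 14 months (62.1%, 49.3% to 73.8%). The groups overlapped, and each held cells at 0. In set 4 a single cell was above 300 TPM, with the next at 173, and its upper quartile was 28.9 TPM against 178 at 4 months. Set 4 had the lower share, 15 of 29 (51.7%, 32.5% to 70.6%), and set 5 had 26 of 37 (70.3%, 53.0% to 84.1%). When 47 cells of each age were matched on the number of genes detected, the shares were 74.5% at 4 months and 76.6% at 14 months. The lower share at 14 months was thus not seen in matched cells. The mean level of Dnajb1 in these cells still lay below the typical gene, by -0.59 on the log2 scale given below.

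Hsp90aa1, the stress-inducible cytosolic HSP90, was by contrast present in nearly every cell without any heat treatment. It was detected in 63 of 64 cells at 4 months and 64 of 66 at 14 months. Its TPM ran from 0 to 5603 with a median of 806 at 4 months, from 0.22 to 3136 with a median of 555 in set 4, and from 16.12 to 4345 with a median of 790 in set 5. The 3 ranges overlap widely, and the cells under 1 TPM were 1 of 4 months and 2 of set 4. Hsp90ab1, the constitutive HSP90, was above it in most cells. The Hsp90aa1 share of the summed HSP90 pair had a median of 27.3% at 4 months, 34.3% in set 4 and 30.5% in set 5, and exceeded 50% in 8 of 64, 9 of 29 and 8 of 37 cells. Reads of Hsp90aa1 are less certain than those of Hsp90ab1, since 58.5% of its 50-base stretches occur in another gene against 4.49%. Its pseudogene partners that were in the table summed to 0.598 TPM at 4 months and 5.24 TPM at 14 months, against 1027 and 1030 for the gene.

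Hspa8, the constitutive cytosolic HSP70 (HSC70), and Hsp90ab1 were the 2 members detected in every kept cell. Hspa8 ran from 4.39 to 7950 TPM with a median of 2445 at 4 months, from 5.15 to 6020 with a median of 1849 in set 4, and from 4.75 to 5597 with a median of 2020 in set 5. By mean log2(TPM+1) it was the highest or second highest member in each group. At 4 months 99.5% of the 9224 measured genes lay below it, where a gene counts as measured when the mean of the ages' detected shares is 10% or more. Of its 50-base stretches, 73.2% occur in another gene, chiefly processed pseudogenes, and the 1 such partner in the table had a mean of 34.8 TPM at 4 months and 91.4 TPM at 14 months against 2752 and 2287 TPM for Hspa8.

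Hsp90ab1 was the steadiest of the 8 measured members across cells. Its TPM ran from 123 to 3994 with a median of 2029 at 4 months, from 3.31 to 4650 with a median of 1127 in set 4, and from 173 to 4032 with a median of 1869 in set 5. Its SD over cells of log2(TPM+1) was 1.13 at 4 months, 1.75 in set 4 and 0.87 in set 5, the lowest of the 8 measured members in each group, and it is a spread over cells rather than an error. The 200 genes of nearest mean had a median SD of 2.42 at 4 months, 2.17 in set 4 and 2.50 in set 5, and 2.5%, 27% and 1% of them had a lower SD than Hsp90ab1, so its steadiness was least marked in set 4. The next lowest SD among the measured members at 4 months was 1.98, for Hspa5.

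Dnaja1, a constitutive J-domain protein of the cytosol that works with HSC70, was detected in 57 of 64 cells at 4 months (89.1%, 78.8% to 95.5%) and 62 of 66 at 14 months (93.9%, 85.2% to 98.3%). Its TPM ran from 0 to 2330 with a median of 322 at 4 months, from 0 to 12806 with a median of 420 in set 4, and from 0 to 2249 with a median of 426 in set 5. The highest value stood alone, since the next in set 4 was 1755. The 14-month mean was 749 TPM with that cell and 564 TPM without it, against 408 TPM at 4 months. Low and high cells occurred at both ages, and the groups overlapped throughout. Lower quartiles were 133 TPM for 4 months, 142 for set 4 and 180 for set 5.

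Hspa5 (BiP, also GRP78) is the HSP70 of the endoplasmic reticulum, where it folds secretory and membrane proteins and holds the sensors of the unfolded protein response. It was detected in 62 of 64 cells at 4 months (96.9%, 89.2% to 99.6%) and 61 of 66 at 14 months (92.4%, 83.2% to 97.5%). Its TPM ran from 0 to 2135 with a median of 465 at 4 months, from 0 to 2027 with a median of 296 in set 4, and from 0 to 1901 with a median of 228 in set 5. The top of the range was alike in the groups, and the lower quartiles were further apart, with 212 TPM for the young cells, 9.42 for set 4 and 87.1 for set 5. None of its 50-base stretches occurs in another gene, so its reads are the least ambiguous of the members.

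Hspd1 (HSP60) and Hspe1 (HSP10) form the chaperonin of the mitochondrial matrix and are transcribed in opposite directions from the shared promoter shown above. Hspd1 ran from 0 to 1168 TPM with a median of 86.4 at 4 months, from 0 to 1726 with a median of 53.9 in set 4, and from 0 to 425 with a median of 20.0 in set 5. It was detected in 50 of 64 cells at 4 months (78.1%, 66.0% to 87.5%) and 46 of 66 at 14 months (69.7%, 57.1% to 80.4%). Hspe1 ran from 0 to 3909 TPM with a median of 167 at 4 months, from 0 to 1662 with a median of 165 in set 4, and from 0 to 1031 with a median of 152 in set 5. It was detected in 52 of 64 (81.3%, 69.5% to 89.9%) and 54 of 66 cells (81.8%, 70.4% to 90.2%). These pooled shares were alike, with 86.2% in set 4 and 78.4% in set 5. In cells matched on genes detected the Hspe1 shares were 78.7% at 4 months and 89.4% at 14 months. The highest 4-month Hspe1 value also stood alone, with the next at 1022 TPM.

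The partners of the mitochondrial chaperonin were detected together in most cells, namely in 43 of 64 at 4 months, 19 of 29 in set 4 and 23 of 37 in set 5 (67.2%, 65.5% and 62.2%). The product of their separate shares would give 63.5%, 62.4% and 53.0%. Hspd1 was detected alone in 7, 2 and 2 cells and Hspe1 alone in 9, 6 and 6. Hspe1 was above Hspd1 in 34 of 64, 19 of 29 and 22 of 37 cells, and the difference of their log2(TPM+1) values had a median of 0.48 at 4 months, 1.56 in set 4 and 0.82 in set 5. Spearman's rho between them over cells was 0.07 at 4 months, 0.22 in set 4 and 0.54 in set 5. The order of these values is a description, since both genes also followed the number of genes detected (rho 0.51 and 0.22 at 4 months, 0.30 and 0.41 in set 4, 0.49 and 0.51 in set 5 for Hspd1 and Hspe1).

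The order of the members by mean log2(TPM+1) at 4 months was Hsp90ab1 (10.64), Hspa8 (10.62), Hsp90aa1 (9.23), Hspa5 (8.35), Dnaja1 (7.24), Hspe1 (6.10), Hspd1 (5.34), Dnajb1 (4.74), Hspa1b (0.20) and Hspa1a (0.19). Each step between neighbours down to Dnajb1 was smaller than the SD over cells of either neighbour, and the step from Dnajb1 to the inducible HSP70 genes was larger than both. At 14 months the means were 10.47 for Hspa8, 10.36 for Hsp90ab1, 8.87 for Hsp90aa1, 8.01 for Dnaja1, 7.13 for Hspa5, 6.02 for Hspe1, 4.24 for Hspd1 and 3.40 for Dnajb1. Dnaja1 was above Hspa5 in both sets (7.62 against 6.43 in set 4, 8.31 against 7.68 in set 5). Hspa8 was above Hsp90ab1 in set 4 (10.23 against 9.94), whereas in set 5 Hsp90ab1 stayed above it (10.68 against 10.65). The 10 genes together held a median of 0.706% of all TPM at 4 months (range 0.0272% to 1.74%), 0.603% in set 4 (0.205% to 1.28%) and 0.675% in set 5 (0.0943% to 1.40%), so the summed chaperone level of the groups overlapped.

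Within the same cell the inducible members were well below the constitutive ones at both ages. The mean log2(TPM+1) of the 4 inducible genes minus that of the 6 constitutive genes was -4.46 ± 1.49 (SD over 64 cells) at 4 months and -4.62 ± 1.46 (SD over 66 cells) at 14 months. By set it was -4.81 ± 1.44 in set 4 and -4.46 ± 1.47 in set 5. The difference between the ages was -0.16, well inside the spread over cells, and set 5 was at the 4-month value. A single cell, in set 4, had its inducible mean above its constitutive mean, by 0.0039. The large gap rests on Hspa1a and Hspa1b being at 0: with Dnajb1 and Hsp90aa1 alone, a choice made after seeing the data, it was -1.06 ± 1.83 at 4 months and -1.57 ± 1.93 at 14 months, and -2.11 ± 1.79 in set 4 against -1.14 ± 1.96 in set 5.

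The comparison of the ages found no shift shared by the heat shock genes. Relative to the typical gene, Dnaja1 was higher at 14 months by 1.13. Dnajb1 (-0.98), Hspa5 (-0.87) and Hspd1 (-0.74) lay below it without reaching the size rule of 1 given below, and Hsp90aa1, Hsp90ab1, Hspa8 and Hspe1 lay within 0.3 of it. Detection was lower in the older cells, and the median measured gene differed by -0.36 on the log2(TPM+1) scale (set 4 -0.43, set 5 -0.34), so differences are given relative to that median, as 14 months minus 4 months. This scale understates the change of low genes. There is no replicate check, since each age is 1 sample, and sets 4 and 5 were both compared with the same 4-month cells.

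By the size rule of 1 or more on the log2 scale, 1 of the 8 measured members was higher at 14 months, where 3.37% of the measured genes were, and 0 of 8 were lower, where 5.08% were. The higher member was Dnaja1, which met the size rule in 7 of 13 alternative settings. In set 4, 2 of 8 were lower (background 6.75%) and 0 higher (background 4.59%). In set 5, 1 was lower (background 6.56%) and 1 higher (background 6.63%). The median over the 8 measured members was 0.04, against 0 for all measured genes by construction, with -0.26 in set 4 and 0.11 in set 5. Counts of 0 to 2 among 8 genes are too few to set the members apart from these backgrounds.

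The stress-inducible class had a median relative difference of 0.09 over its 4 members, with -0.12 in set 4 and 0.16 in set 5. That median is set by Hspa1a and Hspa1b, which did not pass the filter on low values: genes at 0 at both ages score above a median gene that is itself lower. Over Dnajb1 and Hsp90aa1 alone it was -0.49, with -1.10 in set 4 and 0.02 in set 5. Dnajb1 differed by -0.98 in all 14-month cells, by -1.73 in set 4 and by -0.37 in set 5, and by -0.59 in cells matched on genes detected. Of the measured genes, 5.28% lay below Dnajb1 in the pooled comparison. Hsp90aa1 had a pooled difference of -0.0028, which joined -0.47 in set 4 and 0.40 in set 5.

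The constitutive class had a median relative difference of 0.14 over its 6 members, with -0.11 in set 4 and 0.11 in set 5, and its members spread from -0.87 to 1.13. Dnaja1 was the highest, at 1.13 pooled, 0.81 in set 4 and 1.41 in set 5, and 97.7% of measured genes lay below it. On medians over cells in place of means it was 0.39. Hspa5 differed by -0.87, with -1.50 in set 4 and -0.33 in set 5, and by 0.68 with all columns kept. Hspd1 differed by -0.74, with -0.26 in set 4 and -1.08 in set 5, whereas its partner Hspe1 differed by 0.27, with 0.86 in set 4 and -0.15 in set 5. Hspd1 was at -0.20 in cells matched on genes detected. Hspa8 (0.20 pooled, 0.04 and 0.37 by set) and Hsp90ab1 (0.07 pooled, -0.27 and 0.38 by set) were near the typical gene. With all columns kept, also those with few detected genes, Hspa8 (1.29), Hsp90ab1 (1.32) and Hsp90aa1 (1.31) were instead higher by more than 1, so their place near the typical gene holds for the kept cells.

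**Figure D2:**
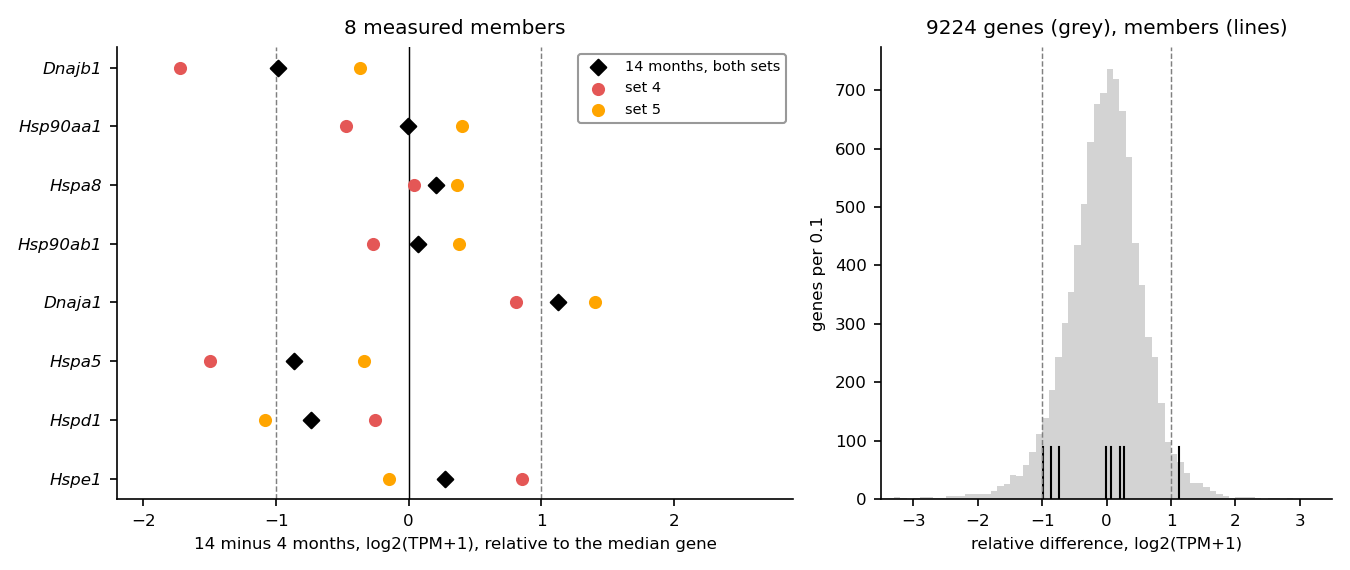
Left, 14 minus 4 months in mean log2(TPM+1) relative to the median measured gene for the 8 measured members, with both sets pooled (black diamonds), set 4 (red) and set 5 (orange); dashed lines mark 1 in either direction. Right, the same pooled quantity for all 9224 measured genes in bins of 0.1 (grey) with the members as black lines, of which Dnaja1 at 1.13 is the 1 beyond a dashed line.

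Across cells of the same age, the members tended to be high together at 4 months with lower values in each 14-month set, a difference that was not tested. Over the 28 pairs of the 8 measured members, the median Spearman's rho was 0.33 at 4 months (64 cells), 0.19 in set 4 (29 cells) and 0.19 in set 5 (37 cells), and 27, 22 and 22 pairs were above 0. The highest pair at 4 months was Hspa8 with Hspe1 (0.62, with 0.09 in set 4 and 0.37 in set 5), and in set 5 it was Hspa8 with Hspd1 (0.66, with 0.41 at 4 months and 0.27 in set 4). Hspa8 with Hsp90ab1 was alike in the groups, at 0.42, 0.37 and 0.36. The HSP90 pair itself gave 0.12, 0.28 and -0.01, and Dnajb1 with Hspa5 gave 0.51, 0.28 and 0.06. No rho of other gene pairs is given beside these values, so they cannot set the members apart from other genes. They are descriptions without a test, and the points share the cell's total and its number of detected genes. That number had a rho of 0.52 with Hspa8 and with Hsp90ab1, 0.51 with Hspd1, 0.27 with Dnajb1 and -0.04 with Hsp90aa1 at 4 months.

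**Figure D3:**
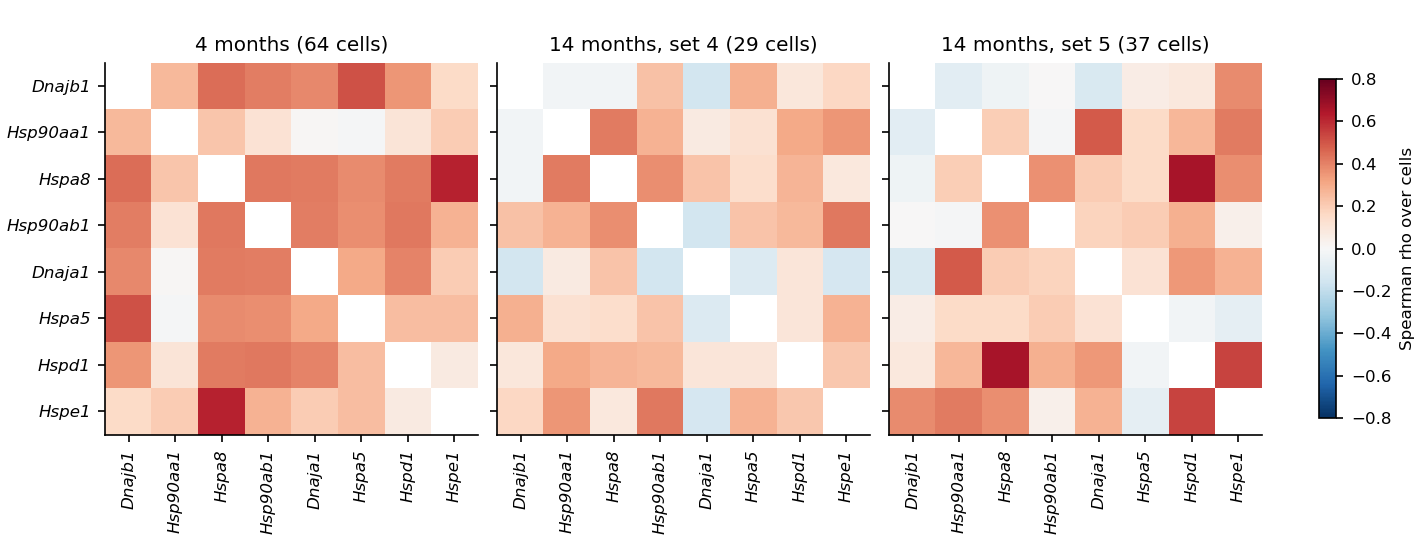
Spearman's rho over cells between the log2(TPM+1) values of each pair of the 8 measured members, in 4-month cells (left), set 4 (middle) and set 5 (right); red is positive, blue negative, and the diagonal is blank. The 4-month panel is red in 27 of 28 pairs, and the deepest red in the set 5 panel is Hspa8 with Hspd1 at 0.66.

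Genes outside the 10 members were ranked by likeness over 4-month cells to the mean of Hspa1a, Hspa1b and Dnajb1. The members were left out beforehand, so the ranking cannot show whether other heat shock members follow this mean. Over 8170 genes, the 6 with the highest rho (64 cells) were Cox20 (0.57), an assembly factor of cytochrome oxidase, Vdac2 (0.56), a channel of the outer mitochondrial membrane, Psmb1 (0.54), a proteasome subunit, Btf3 (0.52), a subunit of the nascent polypeptide-associated complex that binds new chains at the ribosome, Zdhhc20 (0.52), a palmitoyltransferase, and Tomm5 (0.51), a subunit of the mitochondrial import pore. In set 4 their rho was between -0.15 and 0.23, and in set 5 between -0.01 and 0.48. The genes were picked for a high rho at 4 months, so only the values of the sets are free of that choice, and in these Zdhhc20 in set 5 was the highest. Since the inducible HSP70 genes are almost always at 0, the score is in effect that of Dnajb1.

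Other heat-inducible genes lay on both sides of the typical gene. Of a list of 16 heat shock factors and heat-inducible genes, 10 were measured, 1 was higher by 1 or more and 0 were lower (backgrounds 3.37% and 5.08%), and the median was 0.10 (set 4 -0.04, set 5 0.26). Hsf1, the factor that drives the response, was detected in 43.8% of 4-month and 24.2% of 14-month cells and differed by -0.84, and Dnajb4, a J-domain protein, by -0.75. Ubb, which encodes polyubiquitin, was the highest at 1.02, with medians of 5021 and 5023 TPM in young and old cells, so the means on the log scale differed where the medians did not. Dedd2, a death effector domain protein, followed at 0.51. Hspb1, a small heat shock protein, was detected in 1.56% of 4-month cells and listed at 0 at 14 months, and Bag3, an HSP70 co-factor induced by heat, in 14.1% and 4.55%.

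The co-chaperones of HSP70 and HSP90 had the highest list median, 0.17 over 20 measured genes (set 4 -0.06, set 5 0.32), with 3 higher by 1 or more and 0 lower (backgrounds 3.37% and 5.08%). In set 4, 5 were higher and 1 lower (4.59% and 6.75%), and in set 5, 4 were higher and 0 lower (6.63% and 6.56%). Ptges3, the HSP90 co-chaperone p23, was highest at 1.74, with 1.75 in each set, with medians of 1141 and 1902 TPM in young and old cells. St13, the HSC70-interacting protein HIP, was next at 1.33, with 1.34 in set 4 and 1.35 in set 5. These 2 genes differed from the members in that the sets gave nearly the same value. Fkbp5, a co-chaperone of steroid receptors, differed by -0.78 and Ahsa1, the activator of the HSP90 ATPase, by -0.69 (set 4 -1.30, set 5 -0.17).

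The remaining chaperone lists spread to both sides. The 8 subunits of TRiC, the cytosolic chaperonin for actin and tubulin, had a median of -0.34, but -0.05 in set 4 and 0.02 in set 5. Cct8 at 1.42 and Cct5 at 1.19 were the highest subunits, and Cct6a at -1.13 and Tcp1 at -0.53 the lowest. The 18 genes of endoplasmic reticulum chaperones and the unfolded protein response, the setting of Hspa5, had a median of -0.32 (set 4 -0.27, set 5 -0.08), with 2 lower by 1 or more and 0 higher (backgrounds 5.08% and 3.37%). Atf4, a transcription factor of the stress response, was lowest at -1.44 and Calr, a lectin chaperone, next at -1.07, while Canx, its membrane-bound relative, was highest at 0.94 and Dnajb9, a J-domain partner of Hspa5, next at 0.44. The 10 mitochondrial chaperones and proteases, the setting of Hspd1 and Hspe1, had a median of 0.13 (set 4 -0.29, set 5 0.15). In the pooled comparison 0 passed 1 in either direction, while in set 4 1 gene was higher, and in set 5 2 were higher and 1 lower (backgrounds 4.59%, 6.63% and 6.56%). Dnaja3 (0.88, with 1.90 in set 4 and 0.11 in set 5) and Grpel2 (0.79), both co-factors of mitochondrial HSP70, were highest, and Timm44 (-0.996), an import motor subunit, and Hscb (-0.88), an iron-sulfur cluster co-chaperone, were lowest.

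Immediate early genes, which like the inducible chaperones respond to handling of cells, were lower as a list at 14 months. All 18 were measured, 12 of 18 were lower by 1 or more at 14 months against 5.08% of measured genes, none was higher, and the median was -1.57 (set 4 -1.35, set 5 -1.72). That background includes genes detected in few cells, and the list was chosen with earlier results of these data known. The contrast with the background is therefore a description. Btg2, an antiproliferative gene, differed by -2.97 and Ier3 by -2.87, while Klf4 at -0.63 and Socs3 at -0.48 were nearest to 0. Over cells, the mean of this list had a rho with Dnajb1 of 0.39 at 4 months, 0.32 in set 4 and 0.05 in set 5. Hsp90aa1 had -0.01, 0.02 and -0.00024 with it. The constitutive members had 0.12 to 0.38 with the list at 4 months, 0.02 to 0.42 in set 4 and -0.18 to 0.42 in set 5. Dnajb1 had 0.17 to 0.38 with the chaperone and heat-response lists at 4 months. A positive rho was therefore particular neither to Dnajb1 nor to the immediate early genes. The inducible HSP70 genes could not show a difference of this kind, since they were at 0 in most cells of both ages.

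**Figure D4:**
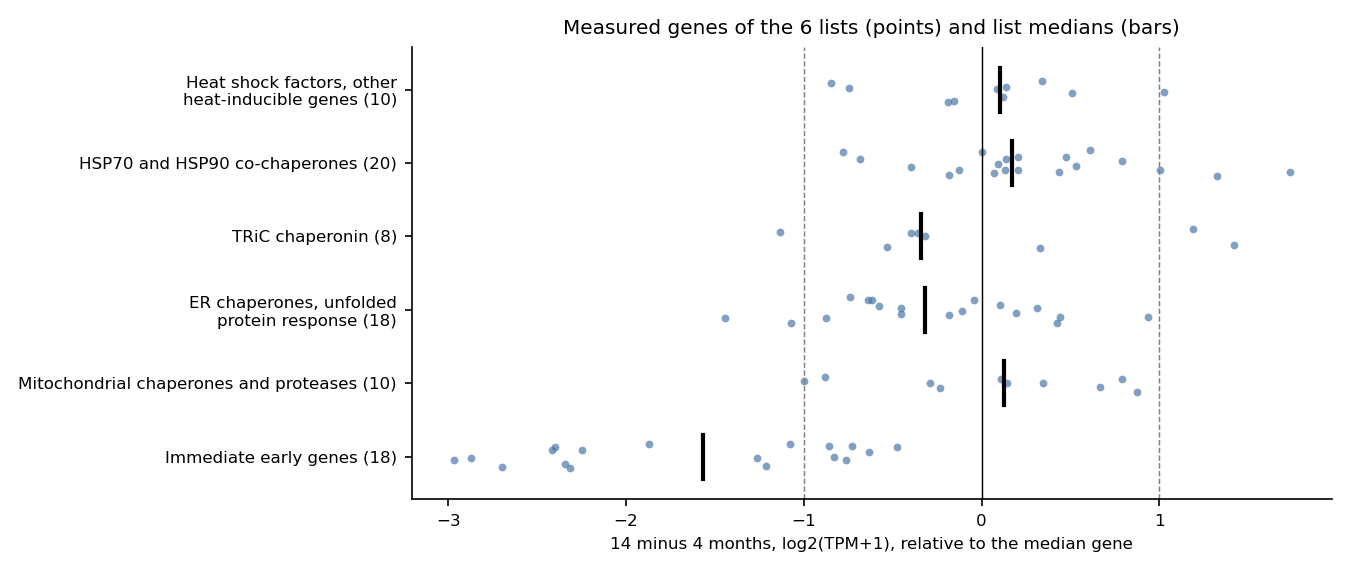
Each point is a measured gene of 1 of 6 lists (number measured in brackets), placed at its 14 minus 4 months difference in mean log2(TPM+1) relative to the median measured gene; black bars are list medians and dashed lines mark 1 in either direction. The medians of the 5 chaperone and heat-response lists lie between -0.34 and 0.17, and that of the immediate early genes lies at -1.57.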

How the data were processed

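Single LMPPs of 4-month and 14-month mice were measured by RNA sequencing. The authors deposited TPM values for 38924 genes in 168 columns, 1 per cell. The submitters' processing notes name RSEM 1.2.12 and Bowtie2 2.2.0, with mm10, and their settings are not given in the sources used here. Per the labels, spike-in RNA was added. Each column sums to 1000000, so depth is unknown and differences in composition move all genes. Symbols were found for 37607 of the identifiers in the Ensembl name table, and 1317 had none. Columns showed the age, not the labelled cell, and 0 columns of samples went unused.

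Columns with 1000 or more genes at TPM 1 or more were kept (64 and 66). Values were log2(TPM+1), with a pseudocount of 1. Measured genes (9224) had a mean detected share over the ages of 10% or more. Doublets were not called, since a caller needs counts. RefSeq promoter windows were searched for exact letters. All 10 members were named, with the 2 highest and 2 lowest measured genes of each list. The 6 genes most like the Hspa1a, Hspa1b and Dnajb1 mean were named, from a pool without the members, predicted genes, pseudogenes and mitochondrial genes. Hspb1, Bag3, Cd68 and the gate markers were named after their values were seen. The members and lists were chosen with earlier results of these data known. No test was run. Scripts used scipy 1.17.1, pandas 2.3.3 and numpy 2.4.6 under Python 3.11.15, with figures by matplotlib 3.10.9. Of their steps, the difference relative to the median gene was checked on simulated cells.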

Additional observations from a re-analysis of the deposited data

How the results depend on the processing

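Depth is unknown, and the low members are limited by how many genes a cell shows. With no replicates, a difference was said to move when it changed by more than 1.5-fold (0.58 on the log2 scale), and a share when it left its 95% interval, limits set after seeing the data. Under 36 of 39 alternatives the class values moved less. That limit is larger than the class values themselves (0.09, 0.14 and -0.16), so a change of sign can pass as less. The stress-inducible median was below 0 in 8 of 14 alternatives and the constitutive median in 5 of 13. The age difference of the within-cell contrast was below 0 in 12 of 12. Leaving out Hspa1a and Hspa1b, chosen after seeing the data, took the stress-inducible median to -0.49. With all columns kept, the constitutive median was 0.98 and the difference of the within-cell contrast between ages was -0.75. Of 108 shares recomputed, 21 moved. With all columns kept, the 4-month shares were 59.5% for Dnajb1, 81.0% for Hsp90aa1, 90.5% for Hspa8, 90.5% for Hsp90ab1, 72.6% for Dnaja1, 78.6% for Hspa5, 60.7% for Hspd1 and 64.3% for Hspe1, and the 14-month shares were 48.8% for Dnajb1 and 67.9% for Hspe1. At TPM 10 or more, Hspa1a or Hspa1b was in 3.13% of 4-month and 0% of 14-month cells, and at 14 months Dnajb1 was in 48.5% and Hspd1 in 56.1%. In cells with 2000 or more genes, Hsp90aa1 was in 100% at 4 months and Hspe1 in 90.9% at 14 months. In cells matched on genes detected, Hsp90aa1 was in 100% at 4 months, and Dnaja1 in 100% and Dnajb1 in 76.6% at 14 months. Hsp90aa1 was in 100% of 14-month cells when counted above TPM 0, and in 100% of set 5. For single genes, the relative difference ran from 0.39 to 2.06 for Dnaja1 and from -2.49 (medians over cells) to -0.37 for Dnajb1; Hspa5 ran from -1.50 to 0.68, above 0 with all columns kept and in no other alternative. With all columns kept, Hsp90aa1 was at 1.31, Hsp90ab1 at 1.32 and Hspa8 at 1.29, each past 1, and on medians over cells Hspd1 was at -1.83. The causes were not tested. No paired analysis was possible because the columns carry no map to the labelled cells, each age is 1 sample and no test was run.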

Other observations

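The 38 columns with fewer than 1000 detected genes, which enter no comparison above, held heat shock transcripts in different ways. In the 20 columns of 4 months, Hsp90ab1 was detected in 12 and Hspa8 in 12, with medians of 30.3 and 19.8 TPM. In the 18 columns of 14 months, Hsp90ab1 was detected in 18, Hspa8 in 16, Hsp90aa1 in 15 and Hspa5 in 15, with medians of 1702, 1610, 896 and 231 TPM. In 1 set 4 column Hsp90ab1 had 858896 TPM, most of that column's total. Hspa1a and Hspa1b were at 0 in these columns at both ages, and Dnajb1 was detected in 1 of 20 and 0 of 18. Of the left-out 14-month columns, 16 were of set 4 and 2 of set 5.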
